A study of Rattus norvegicus with 49 samples.

Results

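The intermediate filament genes Gfap, Vim and Nes were followed in the CA1 region of the hippocampus of Fisher 344 rats of 5 ages. They were taken as all probe sets with these gene symbols in the platform annotation, which gave 3 of the 15923 probe sets of the Affymetrix RAE 230A array, 1 for each gene. All 3 passed a filter that asked for a signal of 100 on at least 5 arrays, as did 9547 probe sets in all. The left hippocampus of each animal supplied the CA1 tissue for 1 array, and the animals were 3, 6, 9 and 12 months (9 each) and 23 months old (13), 49 arrays in all. No genotype or drug set the groups apart: all the animals had swum in a Morris water maze, a test of spatial memory, in the days before the tissue was taken, and their age was what differed. The oldest group is called 23 months in the sample labels and 25 months in one sentence of the design text. The labels name no sex. Tissue pieces of CA1 hold neurons, glia and vessels together, so that more cells of a type and more RNA per cell cannot be told apart.

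Gfap encodes glial fibrillary acidic protein, the filament protein by which astrocytes are usually recognised. Vim encodes vimentin, which assembles with it in astrocytes and is also made by endothelial cells, microglia, fibroblasts and ependymal cells. Nes encodes nestin, a long filament protein of neural stem cells that needs a partner such as vimentin to form filaments and that astrocytes can make again after injury. Astrocytes that react to damage, inflammation or ageing are known for thicker filament bundles, and a higher Gfap transcript level is a classical feature of the aged rodent hippocampus. In rodents the Gfap gene is switched on through cytokine receptors that contain Il6st and through the transcription factor Stat3.

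The 250 bases before the RefSeq transcription start of Gfap and Vim (rat assembly GRCr8) are shown because these genes rose with age. They lie at chr10:88361662-88361911 on the minus strand for Gfap and at chr17:81577011-81577260 on the plus strand for Vim, each written 5′ to 3′ along its gene, with motif matches in capitals.
Gfap: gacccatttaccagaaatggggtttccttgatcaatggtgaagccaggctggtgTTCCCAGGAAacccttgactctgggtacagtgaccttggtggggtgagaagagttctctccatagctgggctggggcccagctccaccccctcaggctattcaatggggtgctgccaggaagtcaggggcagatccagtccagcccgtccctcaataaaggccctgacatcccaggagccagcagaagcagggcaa
Vim: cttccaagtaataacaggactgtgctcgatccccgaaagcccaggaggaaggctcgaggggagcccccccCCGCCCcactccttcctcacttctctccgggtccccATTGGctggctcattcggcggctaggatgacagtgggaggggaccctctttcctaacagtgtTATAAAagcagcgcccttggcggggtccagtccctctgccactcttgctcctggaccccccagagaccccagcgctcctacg
The windows were searched on both strands for the TATA box TATAAA, the CCAAT box CCAAT and the GC box GGGCGG. They were also searched for TTC followed by GAA with a spacer of 3 or of 4 bases (the palindrome that STAT factors bind), for the AP-1 motif TGANTCA, and for the NF1 palindrome, TTGGC followed by GCCAA with a spacer of 5 bases. Vim held TATAAA, which begins 82 bases before the start, a reversed CCAAT and a reversed GGGCGG. Gfap held none of these and 1 match to the STAT palindrome with a spacer of 4, which begins 196 bases before the start. Which STAT factors prefer which spacer was not examined, and whether any factor binds this match was not tested. These motifs are common or short: of 33469 windows of this length, 12.9% held TATAAA, 34.0% CCAAT, 30.5% GGGCGG and 6.25% that STAT palindrome. The STAT palindrome with a spacer of 3, the AP-1 motif and the NF1 palindrome, present in 7.67%, 6.34% and 0.0359% of windows, were found in neither. No matches overlapped. The GC content was 57.6% for Gfap and 62.4% for Vim, against a median of 51.2% over all windows. The window listed for Nes begins inside the span that RefSeq gives for that gene and is not shown.

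The arrays were alike in brightness, with median signals between 208 and 224.9, and the markers of the dissected tissue were present: no gene of the neuron list had a mean under 100 at any age. Transthyretin, a transcript of the choroid plexus, stood between 3908 and 16310 on 5 arrays (3 months replicates 4, 6, 7 and 8 and 23 months replicate 11). It was at 1123 or less on the other 44. Calls that were lost when these 5 arrays were dropped are pointed out. Dropping them leaves 5 animals of 3 months and a wider SE, 0.0726 against 0.0595 for Gfap at 23 against 3 months. A lost call therefore need not mean a smaller difference. Nor does the wider SE show that a difference kept its size, and the list genes' differences without these arrays are not given. RNA breakdown was read from control probe sets at both ends of a transcript: the 3′ over the 5′ signal, as log2, was 0.309 ± 0.0784 at 23 months and 0.26 ± 0.0655 at 3 months for GAPDH (SD, n = 13 and 9, exact two-sided permutation p = 0.141). For beta-actin it was 0.925 ± 0.145 at 23 months and 0.815 ± 0.134 at 3 months (SD, n = 13 and 9, exact two-sided permutation p = 0.0862).

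Gfap transcript was abundant at every age and highest at 23 months. Its signal (MAS5 intensity on a linear scale, scaled to a target of 500 on each array) had its lowest, median and highest values at 5664, 6173 and 7342 at 3 months, 6141, 6562 and 7846 at 6 months, 5846, 6280 and 7022 at 9 months, 5655, 6878 and 7919 at 12 months, and 6874, 8229 and 11251 at 23 months. The first 4 ages overlapped widely, and 11 of the 13 oldest animals lay above the highest animal of 3 months. The means were 6334 ± 503, 6680 ± 549, 6408 ± 387 and 6901 ± 685 at 3, 6, 9 and 12 months (SD, n = 9 each) and 8433 ± 1188 at 23 months (SD, n = 13). In limma's moderated F-test over the 5 ages Gfap passed (F = 16.7, adjusted p = 2.72e-06), as did 1.77% of all tested probe sets, and it had the 26th smallest p of 9547.

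Vim too was highest at 23 months. Its lowest, median and highest signals were 360.7, 476.8 and 589.8 at 3 months, 360.6, 542.4 and 669.7 at 6 months, 396.3, 516.8 and 593.3 at 9 months, 465.3, 523.0 and 762.9 at 12 months, and 527.9, 648.4 and 1237 at 23 months. Neighbouring ages overlapped in every case, and 12 of the 13 oldest animals exceeded the highest of 3 months. The means were 461 ± 76.0, 527 ± 111, 507 ± 59.8 and 554 ± 89.2 at 3, 6, 9 and 12 months (SD, n = 9 each) and 712 ± 181 at 23 months (SD, n = 13). Vim also passed the F-test over ages (F = 9.43, limma adjusted p = 0.0011).

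Nes was barely measurable. Its signal was under 100 on 32 of the 49 arrays and did not exceed 161.6 on any, so its level is bounded more than measured. Its lowest, median and highest signals were 65.3, 91.9 and 115.3 at 3 months, 45.1, 102.7 and 109.1 at 6 months, 73.8, 94.3 and 110.1 at 9 months, 42.2, 92.8 and 125.8 at 12 months, and 46.6, 90.0 and 161.6 at 23 months. The 5 ages overlapped almost completely, and the F-test did not pass (F = 0.26, limma adjusted p = 0.997).

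**Figure D1:**
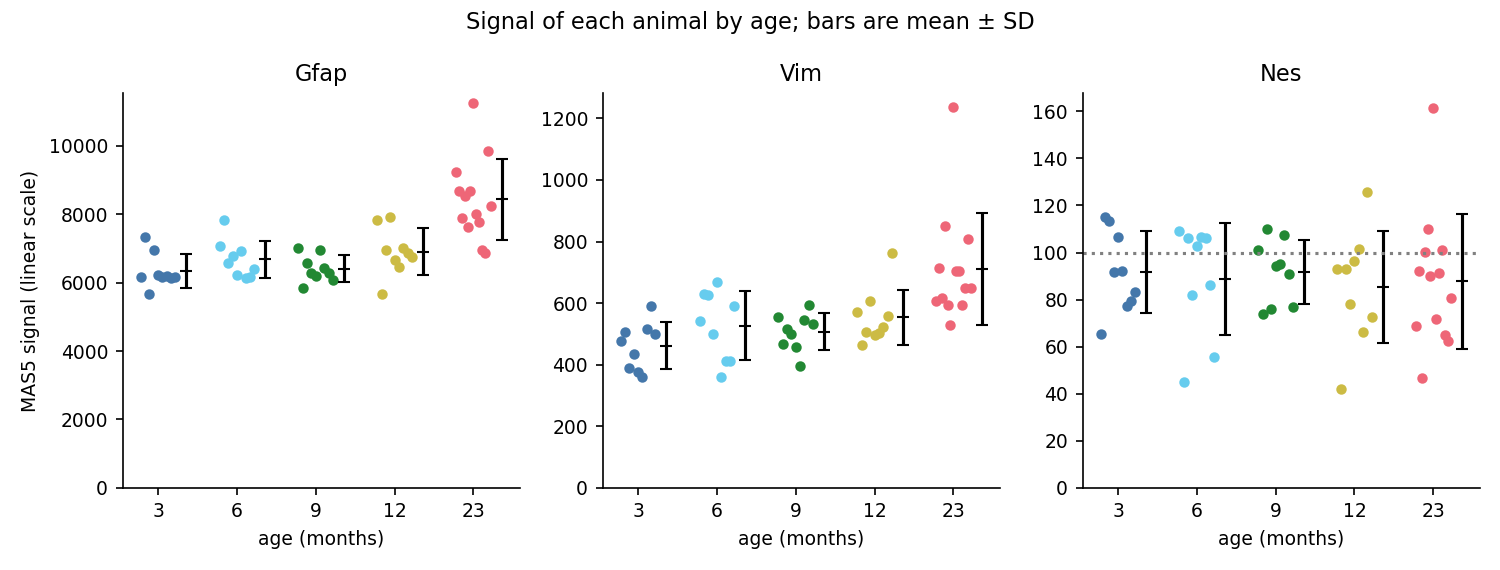
MAS5 signal (linear scale) of Gfap, Vim and Nes against age in months; each point is 1 animal and each bar the mean ± SD of the age, with a dotted line at 100 in the Nes panel. Gfap and Vim stand highest at 23 months, with 1 animal at 11251 and 1237, while 32 of 49 Nes points lie under 100.

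The comparison of the oldest with the youngest animals gave the main change. Gfap was higher at 23 than at 3 months by 0.404 ± 0.0595 (SE) on the log2 scale, or 1.32-fold, with a 95% interval of 0.285 to 0.524 (limma adjusted p = 3.19e-06), and 13 of 13 old animals lay above the 3-month mean. Vim was higher by 0.608 ± 0.108, or 1.52-fold, with an interval of 0.391 to 0.826 (limma adjusted p = 0.000121), again with 13 of 13 above the 3-month mean. Nes differed by -0.104 ± 0.169 (limma adjusted p = 0.849), and the interval of -0.443 to 0.235 leaves room for moderate changes either way. Thus 2 of 3 members rose, where 3.12% of all tested probe sets were called and 2.15% were called higher. By the size of p Gfap stood 31st and Vim 62nd of 9547. With the transthyretin-rich arrays dropped the differences were 0.433 for Gfap and 0.657 for Vim, and both still passed.

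At the middle ages no member passed against 3 months. At 6 months the log2 differences were 0.0765 for Gfap, 0.18 for Vim and -0.081 for Nes, and at 9 months they were 0.0184, 0.144 and 0.0112 in the same order of genes. At 12 months Gfap differed by 0.121 (95% interval -0.00872 to 0.251, limma adjusted p = 0.679) and Vim by 0.268 (0.0312 to 0.505, limma adjusted p = 0.551). Few probe sets of any gene passed at these ages: 0.0105% at 6, 0.0524% at 9 and 0.199% at 12 months. At 23 against 12 months 0.283% of all tested probe sets were called. The last interval, also the longest, held most of the change in Gfap, which was higher by 0.283 ± 0.0595 (limma adjusted p = 0.01). That call ended when 12 months replicate 2, the lowest Gfap animal of its age at 5655, was left out (adjusted p = 0.0529), when the 2 ages were fitted alone (0.134) and after median centring of the arrays (0.0502). Vim was higher at 23 than at 12 months by 0.341 ± 0.108, which did not pass (limma adjusted p = 0.266).

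**Figure D2:**
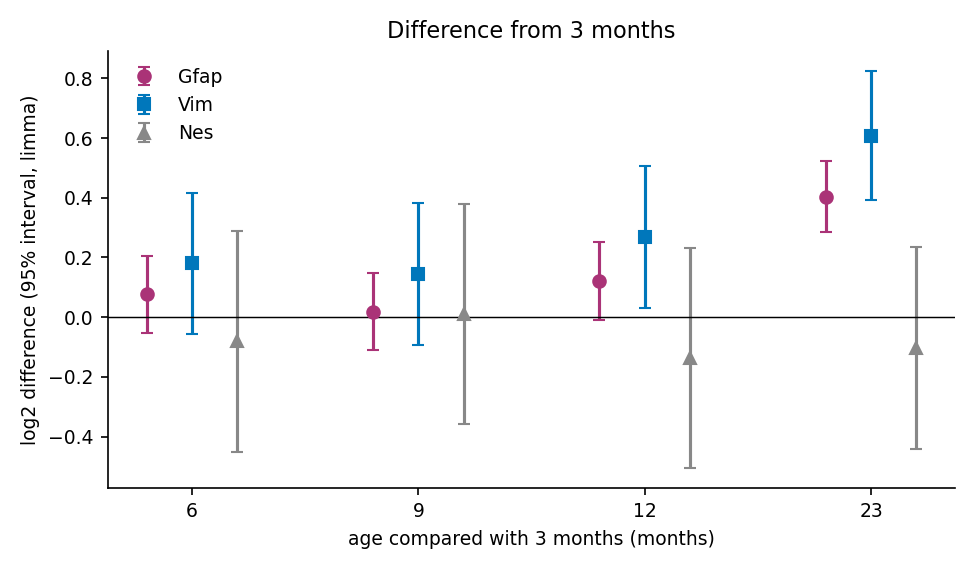
log2 difference of each age from 3 months (horizontal axis, months) for Gfap, Vim and Nes with limma's 95% interval. The intervals of Gfap and Vim lie clear of 0 at 23 months (0.285 to 0.524 and 0.391 to 0.826), and those of Nes cover 0 at every age.

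By mean signal both Gfap and Vim ran in the order 3, 9, 6, 12 and 23 months. None of the neighbours up to 12 months differed beyond their spread: the log2 differences were -0.0581 for Gfap and -0.0357 for Vim at 9 against 6 months, 0.0446 and 0.0882 at 12 against 6 months (a comparison added after the order was seen), and 0.103 and 0.124 at 12 against 9 months, with limma adjusted p-values of at least 0.996. No probe set of any gene was called by limma at 9 against 6 or at 12 against 9 months, where 219 and 380 had an unadjusted p under 0.05, and a gene-by-gene two-sample test called 0 too. As a description of shape, a line in months took 54.1% of the variance of Gfap over the 49 animals, a step between 12 and 23 months 54.7%, and separate means for all 5 ages 58.5%. For Vim the line took 42.1%, the last step 37.3% and separate means 43.5%. No test compared these shapes, so a steady and a late rise were not told apart. For Nes separate means took 2.29%. With age as a number, the slope was 0.0207 ± 0.00269 log2 units a month for Gfap and 0.0291 ± 0.00474 for Vim (limma adjusted p = 7.85e-08 and 1.51e-05), where 5.05% of probe sets had a called slope and 3.14% one above 0, and -0.00447 ± 0.00734 for Nes (adjusted p = 0.815).

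Whether the filaments changed by unequal amounts was asked within each animal. The log2 signal of Vim minus that of Gfap averaged -3.59 ± 0.23 at 23 months and -3.79 ± 0.24 at 3 months (SD, n = 13 and 9). The difference of 0.204 ± 0.102 (SE) towards a larger rise of Vim did not pass an exact two-sided permutation test (p = 0.0584, also 0.0584 after adjustment over 3 pairs). Nes minus Gfap was lower at 23 than at 3 months by 0.508 ± 0.149 (-6.64 against -6.13) and Nes minus Vim by 0.713 ± 0.185 (-3.05 against -2.34), and both passed (exact permutation p = 0.00484 and 0.000957, adjusted 0.00726 and 0.00287). Since the Nes signal was low and was not itself called as changed, both passes largely restate the rises of Gfap and Vim. These values describe the signal of Nes, and how its transcript moved was not measured.

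The oldest animals were spread widely in Gfap. The mean absolute deviation of log2 Gfap from the median of the age was 0.144 at 23 months and 0.0646 at 3 months, a difference that did not pass an exact two-sided permutation test (p = 0.127, adjusted over 3 genes 0.38), although it did when 3 months replicate 2 was left out (exact permutation p = 0.0448, unadjusted). It passed with no other single array left out. Without 23 months replicate 8 the difference of 0.0794 became 0.0538 (exact permutation p = 0.199). For Vim the deviations were 0.211 at 23 months and 0.193 at 3 months (exact permutation p = 0.872), and their difference of 0.0183 became -0.0417 without 23 months replicate 8. For Nes they were 0.333 at 23 months and 0.216 at 3 months (exact permutation p = 0.307).

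A single animal, 23 months replicate 8, held the highest value of all 49 for each of the 3 genes, at 11251 for Gfap, 1237 for Vim and 161.6 for Nes. The other 12 animals of its age reached at most 9859, 850.3 and 109.9. The same array stood at 4388 for the haemoglobin gene Hbb, against at most 658.6 in the other 12, at 426.6 for Vwf, the endothelial clotting factor (at most 297.6), and at 8153 for the sum of 16 endothelial markers (at most 6497), and the part of these in its filament signals was not tested. Its sum over 22 reactive astrocyte genes was also the highest of its age, at 8970 against at most 8544 in the other 12. Its sum over 17 microglial markers, 13913, was the 8th highest of 13. That over the astrocyte identity genes, 132097, was the 7th highest, and that over genes for signals that induce Gfap, 15099, the 12th. Without this animal Gfap was higher at 23 than at 3 months by 0.369 and Vim by 0.539, and both still passed (limma adjusted p = 4.05e-06 and 0.00018).

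Animals of 1 age with more Gfap transcript also tended to hold more Vim, but the relation rested on few animals. Over deviations from the age means of 49 animals, Pearson's r was 0.428 and Spearman's rho 0.322 (permutation within ages, p = 0.00631 and 0.0308, adjusted over 3 pairs 0.0189 and 0.0924). Leaving out 23 months replicate 8 brought r to 0.254 (permutation p = 0.0906), and leaving out replicates 8 and 14 of 23 months, the farthest from the median in Gfap, to 0.234. Within single ages r was 0.228, 0.21, -0.0933, 0.435 and 0.683 at 3, 6, 9, 12 and 23 months. None of 15 such correlations among the 3 genes passed after adjustment (smallest adjusted permutation p = 0.191, for Gfap with Vim at 23 months), and the value of 23 months fell to 0.12 without its 2 farthest animals. Gfap with Nes and Vim with Nes had r of 0.22 and 0.0592 over deviations (permutation p = 0.18 and 0.719). With single arrays left out the first ranged from 0.0506 (without 23 months replicate 8, permutation p = 0.755) to 0.358 (without 6 months replicate 2, permutation p = 0.0341, unadjusted). The second ranged from -0.159 (without 23 months replicate 8) to 0.136.

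**Figure D3:**
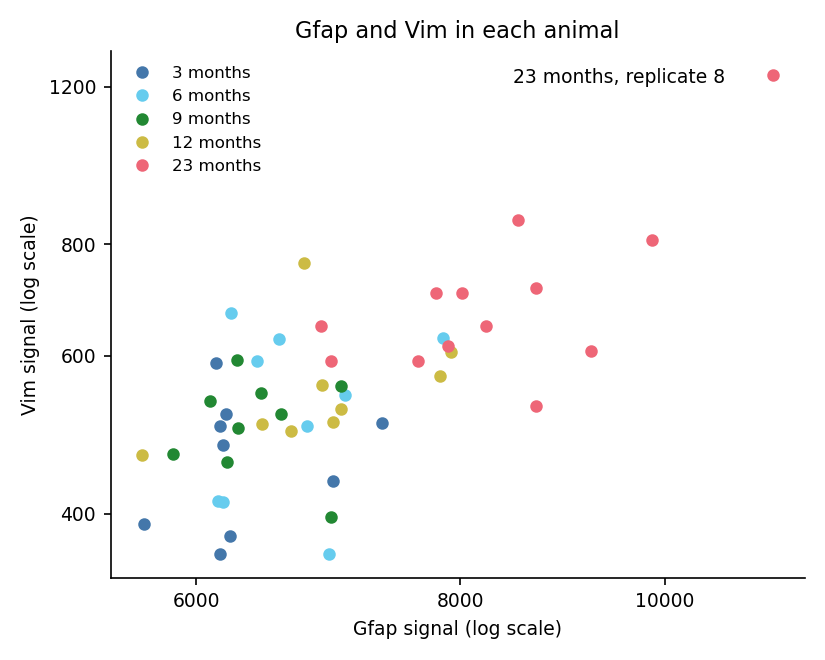
Vim signal against Gfap signal, both on log axes, with 1 point per animal coloured by age. The animals of 23 months lie to the upper right, and 23 months replicate 8 stands apart at 11251 and 1237.

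Of 13 tested genes for other intermediate filaments, lamins and the linker proteins that tie filaments to the rest of the cell, 0 passed limma at 23 against 3 months in either direction, where 2.3% of all other genes rose and 0.816% fell. A two-sample test on each gene alone called 0 as well. An unadjusted p under 0.05 was held by 1 of the 13, against 1163 of all 8092 other tested genes. The 1 of the 13 was Plec, the plectin linker, at 655 ± 84.2 at 23 months and 564 ± 72.7 at 3 months (SD, n = 13 and 9), 1.16-fold (limma adjusted p = 0.0826). Synm, synemin, a filament protein that joins vimentin and Gfap filaments in astrocytes, stood at 538 ± 104 at 23 months and 476 ± 57.5 at 3 months (log2 difference 0.161, limma adjusted p = 0.568). The neurofilament genes Nefl, Nefm and Nefh differed by -0.014, 0.00375 and -0.0188, and the neuronal filament gene Ina by -0.1. The median log2 difference of the 13 genes was 0.0903, against 0.000819 over all 8092 other tested genes.

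Of 15 tested genes whose proteins act on filaments, 1 rose and 0 fell by the brightest probe set of each gene (6.67% rose, against 2.3% of all other genes). Cryab, the small heat shock protein that keeps Gfap and vimentin filaments from clumping, rose 1.23-fold, to 1463 ± 292 at 23 months against 1176 ± 170 at 3 months (SD, n = 13 and 9, limma adjusted p = 0.0428). Dropping the transthyretin-rich arrays ended the call (adjusted p = 0.18), and so did a gene-by-gene two-sample test (0.16). Pak1, a kinase that phosphorylates vimentin, stood at -0.118 (log2, limma adjusted p = 0.185) by its brightest probe set, whereas its other probe set fell by 0.396 (limma adjusted p = 0.00342). Capn2, a calpain protease that cuts filaments, and Padi2, the enzyme that citrullinates Gfap, were 1.1 and 1.15-fold higher without passing.

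Of 28 tested genes for signals known to induce Gfap, 2 rose and 0 fell (7.14% rose, against 2.3% of all other genes). Il6st, the gp130 subunit through which interleukin-6 and its relatives signal, rose 1.32-fold, to 1011 ± 140 at 23 months against 770 ± 137 at 3 months (SD, n = 13 and 9, limma adjusted p = 0.000977). Stat3, the transcription factor below it, rose 1.32-fold, to 437 ± 65.7 at 23 months against 334 ± 72.6 at 3 months (SD, n = 13 and 9, limma adjusted p = 0.026). The Stat3 call was lost when the transthyretin-rich arrays were dropped (adjusted p = 0.363), and a gene-by-gene two-sample test gave 0.0529. A further Stat3 probe set stood at 0.237 (log2, limma adjusted p = 0.278). Of the further Il6st probe sets, one rose by 0.462 (limma adjusted p = 0.000728) and the other stood at 0.042 (0.701). Tgfbr1, a receptor of transforming growth factor beta, and Id3 were 1.19 and 1.1-fold higher without passing.

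Some genes raised in reactive astrocytes, and some that define astrocytes in general, rose as well. Of 22 tested reactive genes 7 rose and 0 fell (31.8%, against 2.3% of all other genes), with a median log2 difference of 0.246. C3, the central complement component, rose 2.55-fold, Serping1, an inhibitor of complement C1, 1.85-fold, the calcium-binding protein gene S100a4 1.72-fold and the annexin gene Anxa3 1.46-fold. Microglia and other cells make several of these transcripts too. Of 28 tested astrocyte identity genes 5 rose and 0 fell (17.9%), with a median log2 difference of 0.0869. S100b rose 1.17-fold, the glutamate transporter gene Slc1a3 1.14-fold by its brightest probe set, Mlc1 1.15-fold and Sparcl1 1.11-fold, each by less than Gfap's 1.32-fold. The other Slc1a3 probe sets stood at -0.182 and -0.00881 (log2, limma adjusted p = 0.367 and 0.968). The call of Sparcl1 was lost with the transthyretin-rich arrays dropped (limma adjusted p = 0.162). Whether the shares of the 2 lists differ was not tested.

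**Figure D4:**
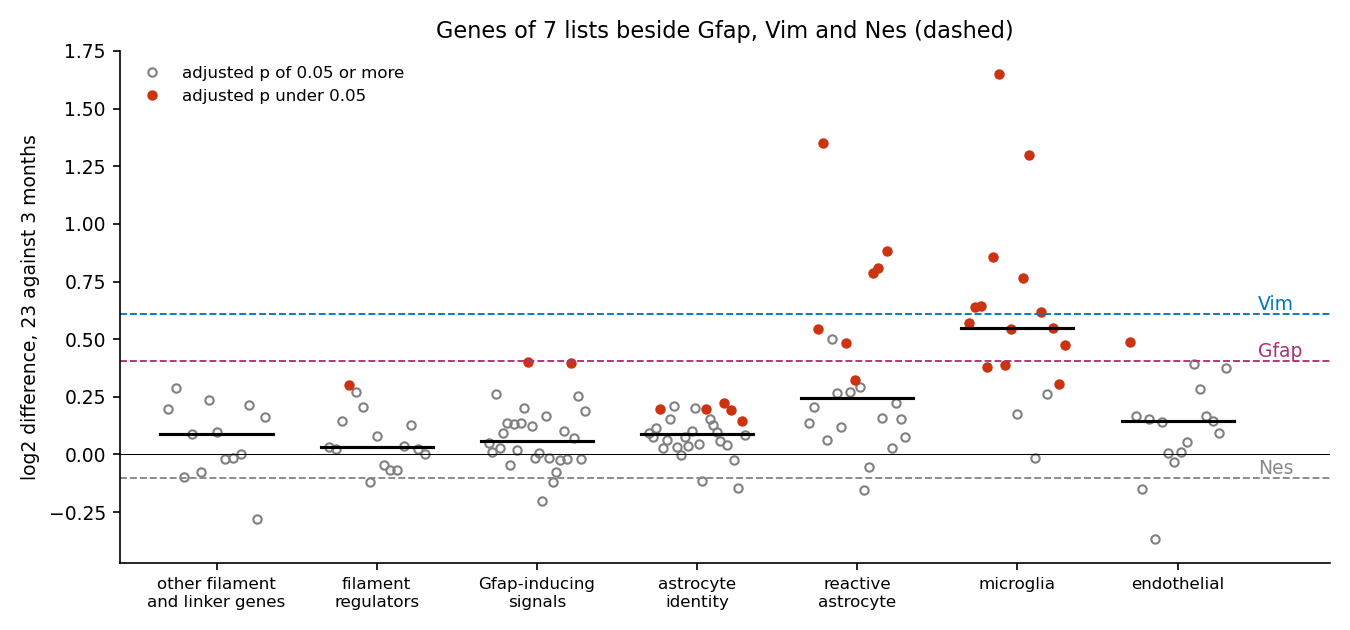
log2 difference at 23 against 3 months of each tested gene in 7 lists (points, filled where the limma adjusted p is under 0.05; bars are list medians), with Gfap, Vim and Nes as dashed lines at 0.404, 0.608 and -0.104. None of the 13 other filament and linker genes is filled and 14 of 17 microglial genes are, where 2.3% of all other genes were called higher and 0.816% lower.

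Among markers of other cells that make vimentin, most of the microglial ones rose with age. Of 17 tested microglial markers 14 rose and 0 fell (82.4% rose, against 2.3% of all other genes), and their summed signal ranged from 11361 to 20712 at 23 months and from 8712 to 10126 at 3 months. The median log2 difference was 0.547, with single genes from -0.0139 (Itgam) to 1.65 (Cd74), and Fcgr2b, Cd53 and Fcer1g rose 2.46, 1.81 and 1.7-fold. At 12 months 3 of the 17 passed, with 0.199% of all probe sets called. Of 16 endothelial markers 1 rose (6.25%, against 2.3% of all other genes), with 7 at an unadjusted p under 0.05, 13 above 0 and a median log2 difference of 0.144. Of all 8092 other tested genes, 1163 had an unadjusted p under 0.05 and 4075 lay above 0. The endothelial gene that rose was Abcb1a at 1.4-fold, a call lost when the transthyretin-rich arrays were dropped (limma adjusted p = 0.131). Its other probe set stood at 0.213 (log2, limma adjusted p = 0.751). The endothelial sum ranged from 5315 to 8153 at 23 months and from 4907 to 5590 at 3 months. Its top of 8153 was 23 months replicate 8, and the other 12 animals of that age reached at most 6497. Of 16 pericyte, smooth muscle and fibroblast markers 0 passed limma and 0 the two-sample test. An unadjusted p under 0.05 was held by 3 of them, against the same 1163 of 8092. Their sums were 6289 to 10719 at 23 months (median 7194) and 5440 to 8702 at 3 months (median 7072). Without the transthyretin-rich arrays the sums reached at most 8963 at 23 months and 8702 at 3 months. The part of these cells in the rise of Vim was not tested.

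**Figure D5:**
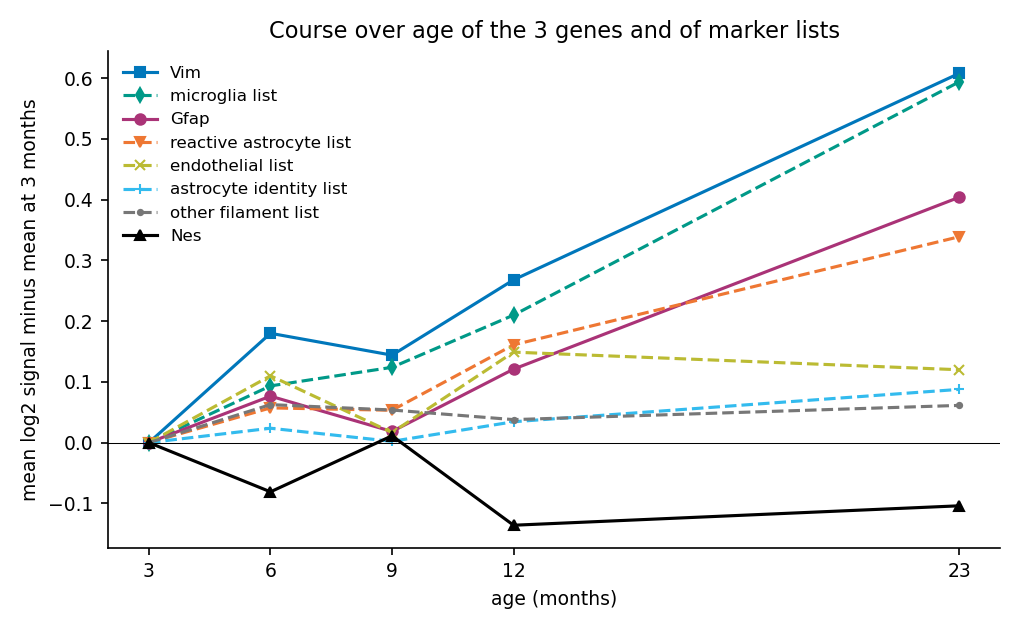
Mean log2 signal minus its mean at 3 months, against age in months, for Gfap, Vim and Nes (solid lines) and for the mean over 5 marker lists (dashed lines). At 23 months Vim stands at 0.608, Gfap at 0.404, the microglial list at 0.594 and the reactive astrocyte list at 0.339.

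The genes most like Gfap over the 49 arrays, by Pearson's r of log2 signal, were Fam107a (0.86), B2m (0.82), Serping1 (0.78), Fxyd1 and Ctsd (both 0.77), Laptm5 (0.75), and C3 and Cyba (both 0.74). They include a light chain of MHC class I (B2m), a lysosomal protease (Ctsd) and a membrane protein of myeloid lysosomes (Laptm5), and all 8 were called higher at 23 months. Vim came 16th of 9546 other probe sets. The genes most like Vim were Laptm5 (0.74), B2m (0.71), Gfap (0.7), Golm1 and Serping1 (both 0.69), Anxa5 and Cyba (both 0.68), and the protease inhibitor gene A2m (0.67). These values are descriptions over animals that share ages, so genes that change with age score high.

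Once each age's mean was taken away, the neighbours changed. Fam107a stayed first for Gfap, with r = 0.74 over deviations and also 0.74 without 23 months replicate 8. It was followed by Bsg (0.7), Mbp, the myelin basic protein (0.65), COX2, a mitochondrial subunit of cytochrome oxidase, and Tagln2 (both 0.63), Dnajb2 (0.62), and Tmbim1 and Mpnd (both 0.61), and Vim came 229th. Fam107a rose 1.18-fold at 23 months (limma adjusted p = 0.000189), whereas the other 7 did not pass. For Vim the closest were Tagln2 (0.58), the caveolin gene Cav1 (0.57), Vwf (0.56), Mocs2 (0.54), the tropomyosin gene Tpm4 (0.53), Hbb and Bhlhe40 (both 0.51) and Tmem192 (0.5), and Gfap came 38th. Without 23 months replicate 8 the values of Tagln2, Cav1, Vwf, Tpm4 and Hbb with Vim were 0.38, 0.45, 0.41, 0.36 and 0.28, while those of Mocs2, Bhlhe40 and Tmem192 were 0.56, 0.56 and 0.48.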

How the data were processed

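Per the submitters' processing notes and the design text, the authors deposited 1 linear intensity per probe set and array, which they computed with MAS5 (its version is not given in the sources used here) and scaled, with every probe set counted, to a target of 500. Presence calls were not used here. Of 15923 probe sets, 12789 had 1 gene symbol, 312 several and 2822 none, and 12754 of the 12789 were updated by Entrez ID through RefSeq genes of GRCr8, for names only. Probe sets with 1 symbol and a signal of 100 on at least 5 arrays (9547) were tested. Signals under 16 were set to 16 (0.0539% of tested values) and log2 was taken, with no further scaling. No per-sample column was left unused (0), and no 2 arrays were alike.

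limma 3.58.1 in R 4.3.3 (lmFit, eBayes with trend) was fitted to all 49 arrays with a mean per age, with Benjamini-Hochberg adjustment over all tested probe sets and a threshold of 0.05; it was tested on simulated data. Lists were counted by each gene's brightest probe set. Single values were compared by exact permutation tests, and correlations over deviations, or within the age of 13 animals, by 100000 permutations. Animals are separate, and their number limits the precision. Genes named are the 3 members, the 4 genes of smallest p per list (the whole filament list was open to naming) and the 8 most alike by each measure, with some left unnamed; 23 months replicate 8 was singled out after its values were seen. The members and lists were chosen with earlier results of these data known. Alternatives covered the floor, the filter, the scaling, array weights, 1 probe set per gene, the model of the variance, the replicate number as a block, the 5 arrays of high transthyretin signal, fits of 2 ages, plain tests and each array left out in turn. Behaviour scores and scan batches are not analysed here.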

Additional observations from a re-analysis of the deposited data

Results flagged for a closer look

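Among the 9 animals of 12 months, replicate 9 had a Vim signal of 762.9, and the next highest animal had 605.5. That gap was 0.529 of the whole range of the age, above the critical value of 0.493 for 9 samples. Chance would mark about 5% of groups, and 12 groups of 9 animals were checked (the 13 animals of 23 months were not). In the same animal Gfap was 6743, near the median of its age.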

How the results depend on the processing

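The calls of Gfap and Vim over 5 ages, at 23 against 3 months and as a slope held under every alternative tried, with log2 differences at 23 against 3 months of 0.356 to 0.46 for Gfap and 0.59 to 0.657 for Vim, and of 0.369 to 0.431 and 0.539 to 0.655 with single arrays left out. No call of Nes was gained. No called value changed sign, and 20 values that were not called did. Gfap at 23 against 12 months (0.283) did not pass after median centring (0.264), in the fit of 2 ages alone (0.283) or in the plain two-sample test (0.283, adjusted p = 0.31); with single arrays left out it ranged from 0.248 to 0.309, and only leaving out 12 months replicate 2 ended the call. Vim minus Gfap passed with quantile normalization (0.257, exact permutation p = 0.0182) and ranged from 0.167 to 0.256 with single arrays left out, passing without 3 months replicate 7, 8 or 9 or 23 months replicate 1 or 7. The difference in the spread of Gfap ranged from 0.0538 to 0.103, and the correlation of Gfap with Vim within ages from 0.254 to 0.474, with single arrays left out. The number of all probe sets called at 23 against 3 months was 298, and 189 without the 5 arrays of high transthyretin signal. At 23 against 12 months it was 27, against 14 in the fit of 2 ages alone, 5 in the plain test and 17 (without 23 months replicate 3) to 34 with single arrays left out. At 12 against 3 months it was 19, and 37 with array weights. At 9 against 3 months it was 5, and from 1 to 9 in other settings. At 6 against 3 months it was 1, and from 0 to 2. With the replicate number as a block Gfap differed by 0.46 and Vim by 0.635 at 23 against 3 months, 301 probe sets were called, and no call of the 3 genes changed; deviations of same-numbered arrays of different ages correlated at -0.129 to 0.362 (mean 0.0675, against -0.00828 for different numbers), and 17 of 44 arrays were closest to one of their own number, a hint from the data of something shared. Since not every such pair was above 0.1, the numbers were not taken as pairs. How many arrays would be closest by chance was not worked out. The permutation tests and the correlations were not rerun with this block. Of the genes named from the lists, Cryab, Stat3, Pax6, Abcb1a and Stmn2 lost their calls both without the 5 arrays and in the plain test, Sparcl1 and Ugt8 without the 5 arrays alone, and Pou3f1 in the plain test alone. Nes was not tested with a signal of 200, and the closeness of its signal to background limits what can be said of it.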

Other observations

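Few markers of the remaining cell types were called at 23 against 3 months. Of 18 tested neuron markers 2 fell and 0 rose (11.1% fell, against 0.816% of all other genes): Pou3f1, a transcription factor gene of CA1 pyramidal cells, to 768 ± 126 at 23 months against 958 ± 129 at 3 months, and Stmn2, a microtubule regulator of growing neurites, to 5311 ± 998 at 23 months against 6479 ± 814 at 3 months (SD, n = 13 and 9, limma adjusted p = 0.0156 and 0.0332). Neither passed the plain two-sample test (adjusted p = 0.0943 and 0.132). A further Stmn2 probe set stood at -0.209 (log2, limma adjusted p = 0.00518). Of the 18 neuron markers, 7 had an unadjusted p under 0.05 and 13 lay below 0, with 5 above. Of all 8092 other genes, 1163 and 4017 did. Of 11 oligodendrocyte markers 1 fell (9.09%), Ugt8, the enzyme that makes the myelin lipid galactosylceramide, 1.21-fold (limma adjusted p = 0.0291), and dropping the transthyretin-rich arrays ended that call (0.217). Among these 11, 4 had an unadjusted p under 0.05, with 5 above 0 and 6 below.

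Of 13 genes of neural stem and progenitor cells, the cells for which nestin is best known, 1 rose (7.69%, against 2.3% of all other genes), Pax6 at 1.29-fold, to 274 ± 48.4 at 23 months against 215 ± 46.3 at 3 months (SD, n = 13 and 9, limma adjusted p = 0.0402), a call that ended in the plain two-sample test (0.155). Dcx, doublecortin of young neurons, stood at 101 ± 25.8 at 23 months and 124 ± 25.5 at 3 months and did not pass (limma adjusted p = 0.374). Of 7 choroid plexus and ependymal markers 0 passed limma, 0 had an unadjusted p under 0.05 (against 1163 of all 8092 other genes) and 0 passed the plain test. Their summed signal ranged from 2000 to 24566 at 23 months and from 2058 to 16638 at 3 months. Without the 5 arrays of high transthyretin signal, left out after their values were seen, the sum ranged from 2000 to 3386 on 12 arrays at 23 months and from 2058 to 2479 on 5 at 3 months. The 1 tested blood marker, Hbb, had a log2 difference of 0.569 and did not pass (limma adjusted p = 0.767).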
